A study of Oryza sativa with 36 samples.

Results

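A group of 10 genes was highest at the early stage of brown planthopper (BPH) feeding in leaf sheaths of the rice line RP and was lower at the late stage. RP is the indica variety 'Wushansimiao', the recurrent parent of 3 near-isogenic lines (NILs), and its libraries carry the label WT. The genes were chosen from RP alone: the mean of the 3 RP_early libraries was 2 CPM (the count of a gene scaled to equal library totals, by the column sum alone) or more, and was at least 2 times both the RP_0 mean and the RP_late mean. Of 38978 genes in the table, 34333 had at least 1 count, 20246 reached an RP_early mean of 2 CPM and 10 met the whole rule. The RP values therefore describe how the genes were picked, and no test is given on them. A ratio of a NIL to RP draws on the same RP values and is given as a description only. What the rule did not use is the course of the same 10 genes in the NILs B14, B15 and B1415.

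RNA of leaf sheaths was sequenced in 36 libraries, with 3 biological replicates in each of 12 groups, and each replicate pooled 15 seedlings. The lines were B14 with BPH14, B15 with BPH15, B1415 with both resistance genes, and RP with neither. Each NIL is 1 line, so a difference between lines covers whatever its genome carries beside the named gene. The stages were non-infested plants (0 h), early feeding (3, 6 and 12 h) and late feeding (24, 48 and 72 h), with 8 nymphs on each infested seedling, and the hours within a stage were pooled and cannot be told apart.

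The brown planthopper is a phloem feeder that pierces the leaf sheath with its stylets and damages few cells. Plants answer piercing, touch and insect saliva with fast changes in transcript level, and part of these changes fades while feeding goes on. BPH14 encodes a protein of the coiled-coil, nucleotide-binding and leucine-rich repeat type, a class of intracellular immune receptors, and BPH15 is a separate resistance locus.

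Names and roles were found here for few of the 10 genes. An annotation was found for 5 in the study's supplementary material: Os01g0173600 (OsGLYI1) with a glyoxalase/dioxygenase domain, Os01g0248701 with a terpenoid synthase domain, Os05g0223300 (OsGRP5), similar to an RNA-binding protein, Os10g0205700 with a pollen Ole e 1 allergen/extensin domain, and Os01g0186900, described only as similar to a cDNA clone. Glyoxalases detoxify methylglyoxal with glutathione, terpenoid synthases form terpenes from prenyl diphosphates, and proteins with an Ole e 1 domain are mostly extracellular. The other 5, Os03g0183500, Os08g0106300, Os10g0328600, Os10g0403000 and Os12g0150200, are given by identifier. By their identifiers, 3 lie on chromosome 1, 3 on chromosome 10 and 1 each on chromosomes 3, 5, 8 and 12. Gene lengths were not used here, so levels are compared between libraries and not between genes.

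Total counts ranged from 10601967 to 18692187 per library. Some libraries stood apart from their labels. Across genes, B14_0-3 was nearest to B15_0-2 (rank correlation 0.961) and had 0.926 and 0.932 with the other B14_0 libraries. The library labelled B15_late-3 was nearest to B1415_late-2 (0.995). Likewise B1415_late-3, as labelled, was nearest to B15_late-1 (0.993). Counts of calls that use these libraries, and calls that change without them, are given with and without them. B14_early-3 and B15_early-1 were also nearest to each other (0.990), against 0.987 to 0.989 with the other libraries of their own groups. Both were left out in turn like every other library. Of markers of green tissue, 1 annotated gene was found, Os03g0592500, at 140 to 682 CPM, and its level was lower at each later stage in every line. The annotated endosperm genes, 2 glutelin-type genes that a leaf sheath should lack, summed to 168 to 379 CPM, so they were not absent. Their sum was lower in the late than in the non-infested libraries of every line, and the part of either marker list in the results was not tested. In bulk tissue, fewer cells of a type and less RNA per cell cannot be told apart.

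The height of the early peak in RP can be stated as the RP_early mean over the higher of the RP_0 and RP_late means. It was largest for Os01g0173600 (4.28), Os10g0205700 (3.26) and Os05g0223300 (2.52). Just inside the threshold of 2 lay Os01g0186900, with means of 2.11, 13.9 and 6.92 CPM in RP_0, RP_early and RP_late (ratio 2.01), and Os03g0183500 (ratio 2.04). Just outside lay Os02g0719600, with 2.40, 37.8 and 19.7 CPM at the same stages (ratio 1.92), and Os01g0755550, with 1.15, 2.44 and 1.27 CPM (ratio 1.92). With these 2, 56 genes had a ratio between 1.5 and 2. Leaving out 1 RP library at a time gave 9 to 14 genes, and CPM scaled by TMM factors gave 8, without Os01g0186900 and Os03g0183500. Of the 10, Os01g0186900 failed the rule without RP_early-2, RP_early-3, RP_late-2 or RP_late-3, Os01g0248701 failed it without RP_late-2 or RP_late-3, Os03g0183500 without RP_early-1 or RP_late-2, Os10g0205700 without RP_early-1 and Os12g0150200 without RP_late-3.

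The same rule applied to the NILs was met by 23 genes in B14, 23 in B15 and 29 in B1415, which is 0.113%, 0.112% and 0.14% of the genes with an early mean of 2 CPM or more in each line, against 10 genes and 0.0494% in RP. Of the 10 RP genes, 3 met the rule in B14, 6 in B15 and 6 in B1415. They made up 13% of the B14 list, 26.1% of the B15 list and 20.7% of the B1415 list. Os01g0173600, Os01g0248701 and Os03g0183500 met it in every line. Os01g0186900 and Os08g0106300 met it in B15 and B1415, Os12g0150200 in B15 and Os10g0403000 in B1415, while Os05g0223300, Os10g0205700 and Os10g0328600 met it in RP only. The B14 count was 1 without B14_late-2, and the counts moved by at most 1.5 times without any other NIL library.

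**Figure D1:**
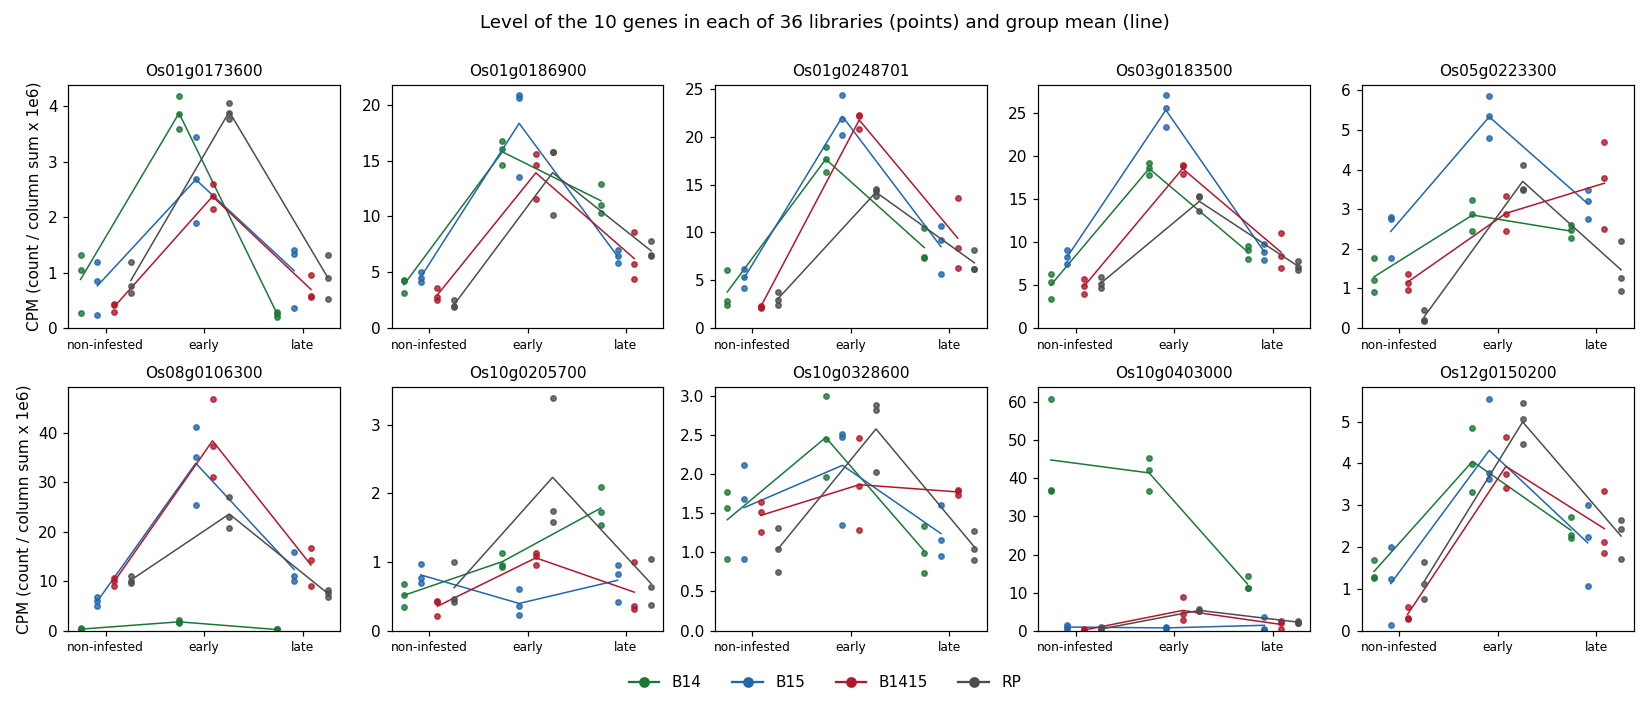
CPM of the 10 genes in each of the 36 libraries (points) and group means (lines) for non-infested, early and late plants of B14, B15, B1415 and RP; each panel has its own linear axis starting at 0. In RP all early points lie above all non-infested and late points for 10 of 10 genes, as the choice of genes made likely, while Os08g0106300 stays at or below 2.07 CPM in B14 and Os10g0403000 reaches 60.9 CPM there.

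Whether the 10 genes rose with early feeding in the NILs was tested in each line on its own libraries. Up- and down-regulation required both a Benjamini-Hochberg adjusted p below 0.05 over all genes tested, from the quasi-likelihood test of edgeR, and a log2 fold change above 1 or below -1. In B14_early/B14_0, 2 of 10 genes were up-regulated, against 0.875% of 23874 genes tested. In B15_early/B15_0 the number was 7 of 10, against 1.95% of 24165 genes, and in B1415_early/B1415_0 it was 9 of 10, against 3.37% of 24247 genes. Os01g0173600, Os10g0205700, Os10g0403000 and Os12g0150200 were among these 9, with at most 8 counts in any B1415_0 library. They passed the filter on low counts (a minimum count of 10) only through their early libraries, so a rise was the likely outcome of their tests. None of the 10 was down-regulated, against 0.151% of all genes in B14, 1.09% in B15 and 0.973% in B1415. Over the 10 genes, the median log2 fold change was 1.69 (B14), 1.60 (B15) and 2.07 (B1415), and the median of all genes was -0.03, 0.01 and 0.01.

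The small number in B14 went with a wide spread of its non-infested libraries. Leaving out B14_0-3 gave 7 up-regulated genes in B14_early/B14_0, when 4.94% of all genes passed in either direction, against 1.03% with all libraries. Leaving out B14_early-1 or B14_early-2 gave 0 (0.111% and 0.094% of all genes), and leaving out B14_early-3, B14_0-1 or B14_0-2 gave 1 each (0.164% to 0.259%). The calls over all genes thus moved with those of the 10. With the unadjusted p in place of the adjusted p, 7 genes passed. DESeq2 on the same genes gave 6, and a single fit of all 36 libraries gave 7. In each of these settings the share of all genes that passed was also above 1.03%. All 3 early libraries lay above all 3 non-infested libraries for 9 of 10 genes in B14 (13.8% of all genes with a mean of 1 CPM or more), 7 of 10 in B15 (25.3%) and 9 of 10 in B1415 (24.4%). All 3 early libraries lay above all 3 late libraries for 8 of 10 genes in B14 (30% of all such genes), 7 of 10 in B15 (22.3%) and 7 of 10 in B1415 (19.6%). All 3 late libraries lay above all 3 non-infested libraries for 6 genes in B14 (29.3%), 2 in B15 (43.3%) and 8 in B1415 (25.8%). RP, whose values chose the genes, had counts of 10 (25.3%), 10 (26.5%) and 6 (28.1%).

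Whether the genes were low again at the late stage was tested by late against early libraries of each line, which share the early libraries with the comparisons above. In B14_late/B14_early, 6 of 10 genes were down-regulated, against 9.84% of genes tested. Of these 6, Os01g0173600 and Os08g0106300 held at most 5 counts in any B14_late library. They passed the filter on low counts there only through their early libraries, so a fall was the likely outcome of their tests. In B15_late/B15_early, 6 of the 8 genes that passed the filter on low counts were down-regulated, against 5.57%, and in B1415_late/B1415_early the number was 5 of 10, against 0.361%. None was up-regulated, against 8.75% of all genes in B14, 4.75% in B15 and 0.613% in B1415. Over the genes tested, the median log2 fold change was -1.12 (B14), -1.49 (B15) and -1.05 (B1415), against 0.03, 0.01 and 0.01 for all genes. Without B1415_early-1, B1415_early-2 or B1415_early-3 none of the 10 passed in B1415, where 9, 0 and 0 of all genes passed, and for Os01g0173600, Os01g0186900, Os01g0248701, Os03g0183500 and Os08g0106300, the 5 called with all libraries, the log2 fold changes then lay between -1.77 and -0.998, against -1.70 to -1.01 with all libraries. Without B1415_late-1 or B1415_late-2 the number was 3 (2.28% of all genes) or 2 (0.471%). Without the library labelled B1415_late-3 it was 5 of 10 (0.913%), with Os10g0403000 in place of Os01g0248701. In B15, 6 of 8 passed also without the library labelled B15_late-3, with Os10g0328600 in place of Os12g0150200. Of all genes 12.6% then passed in either direction, against 10.3% with all libraries.

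The late level was also set against the non-infested level. In B14_late/B14_0, 2 of the 8 genes tested were up-regulated (12.6% of all genes) and 1 was down-regulated (13% of all genes). In B15_late/B15_0 no gene of the 10 passed, with 13.4% of all genes up-regulated and 13.9% down-regulated, and the count was also 0 at the unadjusted p below 0.05 with the same fold threshold and with DESeq2. One gene, Os10g0403000, passed there without the library labelled B15_late-3, when 29.1% of all genes passed in either direction, against 27.2% with all libraries. In B1415_late/B1415_0, 4 of the 7 genes tested were up-regulated, against 6.73% of all genes, and none was down-regulated, against 4.48%. These were Os01g0186900, Os01g0248701, Os05g0223300 and Os12g0150200. Without the library labelled B1415_late-3 the number was 4 of 8, with Os10g0403000 in place of Os01g0186900. Of all genes 8.35% then passed in either direction, against 11.2% with all libraries. Without B14_0-3, 7 of the 9 genes tested passed in B14_late/B14_0, 5 higher and 2 lower, when 26.4% of all genes passed in either direction, against 25.6% with all libraries. These included Os01g0248701, Os03g0183500 and Os05g0223300, which did not pass there with all libraries.

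**Figure D2:**
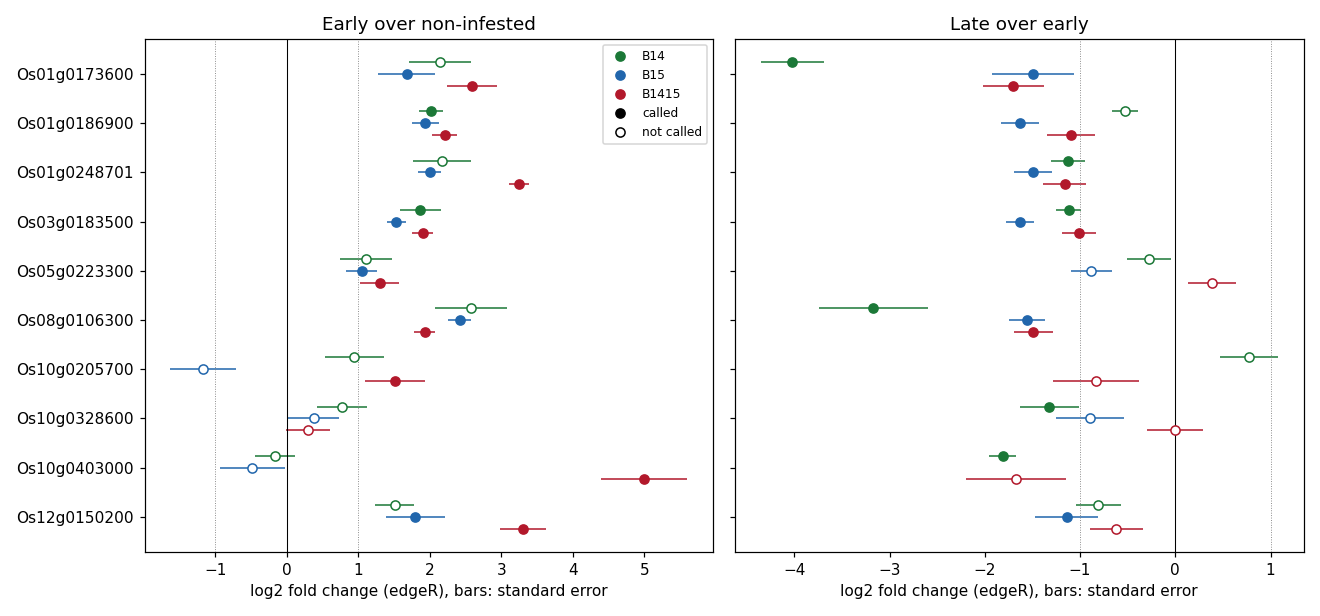
Log2 fold changes (points) with their standard errors (bars) of the 10 genes in B14, B15 and B1415, early over non-infested (left) and late over early (right); filled points were called up- or down-regulated, dotted lines mark -1 and 1. Os10g0205700 and Os10g0403000 have no B15 point on the right because they were removed there as low counts; the left panel shows positive values for 9 genes in B14, 8 in B15 and 10 in B1415.

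Os01g0173600, OsGLYI1 of the glyoxalase family, had the highest peak in RP and kept it in every NIL. In B14 it had 1.31, 1.04 and 0.271 CPM in non-infested, 3.59, 3.85 and 4.19 CPM in early and 0.294, 0.247 and 0.19 CPM in late libraries. In B15 the values were 0.23, 0.852 and 1.2, then 3.45, 1.9 and 2.69, then 1.34, 1.41 and 0.356 CPM, and in B1415 they were 0.418, 0.289 and 0.428, then 2.59, 2.14 and 2.39, then 0.578, 0.558 and 0.952 CPM. RP had 0.763, 1.18 and 0.626, then 3.89, 4.05 and 3.77, then 0.518, 1.32 and 0.897 CPM. The early libraries of each line lay above all its other libraries. The log2 fold change in B14_late/B14_early, -4.02 ± 0.33 (SE, adjusted p = 6.68e-06), was the lowest of all members and all 3 lines, and B14_late was the only late group below its own non-infested mean (0.244 against 0.877 CPM), at 3 or 4 counts per library. Early up-regulation passed in B15 (1.67 ± 0.40, adjusted p = 0.00657) and B1415 (2.59 ± 0.34, adjusted p = 4.43e-05). In B14 the change was 2.14 ± 0.43 with an adjusted p of 0.0665, and it passed without B14_0-3 (1.78). The late decrease in B15 (-1.49 ± 0.43, adjusted p = 0.014) did not pass without B15_early-1 or B15_early-3 (-1.33 and -1.47).

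Os01g0248701, with a terpenoid synthase domain, rose more in B1415 than in B15. Its libraries in B1415 held 2.33, 2.24 and 2.14 CPM before feeding, 20.8, 22.3 and 22.2 CPM at the early and 8.35, 13.6 and 6.25 CPM at the late stage. In B15 they held 4.21, 5.3 and 6.12, then 20.2, 24.3 and 21.8, then 5.68, 9.19 and 10.7 CPM, and in B14 2.4, 2.87 and 6.04, then 16.4, 18.9 and 17.7, then 10.5, 7.41 and 7.34 CPM. RP held 3.75, 2.89 and 2.38, then 14.5, 13.8 and 14.3, then 8.12, 6.13 and 6.2 CPM. The early libraries did not overlap with the others of their line in any of the 4 lines, and the early means of the NILs were 1.24 (B14), 1.56 (B15) and 1.53 (B1415) times the RP mean. The log2 fold change was 3.25 ± 0.15 in B1415_early/B1415_0 (SE, adjusted p = 2.57e-10) and 2.00 ± 0.16 in B15_early/B15_0 (adjusted p = 3.4e-07), and the difference of the 2 changes was itself past the threshold (1.26 ± 0.22, adjusted p = 0.0133). That call did not pass without B1415_0-1, B1415_0-3 or B15_0-3 (1.29, 1.22 and 1.11). In B14 the early change was 2.18 ± 0.41 with an adjusted p of 0.053, and without B14_0-3, its highest non-infested library, it was 2.82 and passed. The late decrease passed in every NIL, at -1.13 in B14, -1.49 in B15 and -1.16 in B1415, and in B1415 it was -0.96 without the library labelled B1415_late-3 and missed the 2-fold limit.

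Os03g0183500, which has no annotation here, showed the same course in the 4 lines. The non-infested libraries held 3.32 to 6.24 CPM in B14, 7.49 to 9.11 in B15, 3.99 to 5.71 in B1415 and 4.6 to 5.96 in RP. The early libraries held 17.8 to 19.1 CPM in B14, 23.4 to 27.1 in B15, 17.9 to 18.9 in B1415 and 13.6 to 15.4 in RP, and the late libraries 8.03 to 9.55, 7.94 to 9.76, 7.03 to 11.1 and 6.7 to 7.83 CPM in the same order of lines. Early libraries thus lay apart from the others in each line. It was up-regulated with early feeding in all 3 NILs (log2 fold change 1.87 ± 0.28 in B14, adjusted p = 0.031, 1.53 ± 0.13 in B15, adjusted p = 1.3e-06, and 1.90 ± 0.15 in B1415, adjusted p = 1.36e-07). In B14 the call was lost without any single library other than B14_0-3 (1.60 to 1.88) and with the replicate block. It was down-regulated from early to late by -1.12 in B14, -1.63 in B15 and -1.01 in B1415. Genes beside Os03g0183500 in locus order, Os03g0183300 and Os03g0183200, did not share its course. Their means were highest at the late stage in every line. For Os03g0183300 the late means were 227 CPM in B14_late, 158 in B15_late, 134 in B1415_late and 224 in RP_late.

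Os01g0186900 was highest at the early stage in all lines, and its late decrease in B14 stayed under the 2-fold limit. Its libraries in B14 held 4.23, 4.31 and 3.12 CPM in non-infested, 16, 16.7 and 14.6 CPM in early and 11, 10.3 and 12.9 CPM in late plants. Non-infested values were 4.44, 4.14 and 5.07 CPM in B15, 2.81, 2.53 and 3.57 in B1415 and 1.94, 2.5 and 1.88 in RP, and early values were 13.6, 20.6 and 20.9 CPM in B15, 15.6, 14.7 and 11.5 in B1415 and 10.2, 15.8 and 15.8 in RP. The early groups of the 4 lines overlapped. Late values were 7.02, 5.8 and 6.46 CPM in B15, 4.37, 5.74 and 8.57 CPM in B1415 and 7.83, 6.51 and 6.43 CPM in RP, so all 3 B14_late libraries lay above every late library of B15 and B1415. It was up-regulated in B14_early/B14_0 (2.02 ± 0.17, SE, adjusted p = 0.00429), B15_early/B15_0 (1.94 ± 0.19, adjusted p = 4.58e-06) and B1415_early/B1415_0 (2.21 ± 0.18, adjusted p = 1.87e-07), the first not without B14_early-1 or B14_early-2 (2.03 and 1.95). The late/early change was -0.53 ± 0.14 in B14, under the 2-fold limit (adjusted p = 0.00815), and the gene was down-regulated in B15 (-1.63 ± 0.20, adjusted p = 0.000135) and B1415 (-1.10 ± 0.25, adjusted p = 0.0427). The B1415 call was lost without any 1 B1415_early library, B1415_late-1 or B1415_late-2 (-1.44 to -0.88 over all alternatives). The late level was still above the non-infested level in B14 (1.51 ± 0.19, adjusted p = 0.00115) and in B1415 (1.10 ± 0.29, adjusted p = 0.0135), where it did not pass without the library labelled B1415_late-3 (0.75), B1415_0-1 (1.05) or B1415_0-2 (1.02).

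Os08g0106300 separated B14 from the other lines by level. B14 had 0.286, 0.522 and 0.0679 CPM in non-infested, 2.07, 1.58 and 1.68 CPM in early and 0.294, 0 and 0.316 CPM in late libraries, which is 5, 8 and 1, then 38, 25 and 28, then 4, 0 and 5 counts. In B15 the values were 6.74, 6.03 and 5, then 41.1, 35.1 and 25.3, then 9.95, 11.1 and 15.9 CPM, and in B1415 they were 10.6, 9.97 and 8.99, then 30.9, 46.8 and 37.3, then 16.6, 14.2 and 8.92 CPM. RP had 11, 9.66 and 9.95, then 20.8, 26.9 and 22.9, then 8.29, 7.55 and 6.73 CPM. No B14 library reached the lowest library of any other line at any stage. The early level was higher in B15_early/B14_early (log2 fold change 4.33 ± 0.19, adjusted p = 2.68e-08) and in B1415_early/B14_early (4.35 ± 0.18, adjusted p = 4.79e-09), and in B1415_early/B15_early the difference was 0.01 ± 0.14 (adjusted p = 0.956). The B14_early mean was 0.075 times the RP_early mean, and those of B15 and B1415 were 1.44 and 1.63 times it.

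The early libraries of Os08g0106300 lay above all others of their line at both levels. The change in B14_early/B14_0 was 2.58 ± 0.51 (SE) with an adjusted p of 0.0614, and it passed with DESeq2 or without B14_0-3 (2.20), while it was 2.42 ± 0.16 in B15 (adjusted p = 8.2e-08) and 1.93 ± 0.15 in B1415 (adjusted p = 9.01e-08). The differences of these changes between lines were -0.15 ± 0.40 for B15 minus B14 and -0.67 ± 0.45 for B1415 minus B14, neither past the threshold. It was down-regulated from early to late in all 3 NILs, by -3.17 ± 0.58 in B14, -1.55 ± 0.19 in B15 and -1.49 ± 0.20 in B1415. A gene 2 places away in locus order, Os08g0106000, also had its lowest means in B14, with 2.71, 3.76 and 3.16 CPM in B14, 9.89, 13.8 and 7.05 in B15, 8.03, 11.0 and 7.05 in B1415 and 7.26, 10.6 and 7.36 in RP at the 3 stages. Of the 3 other genes within 2 places, 1 had a mean of 0 in every group and the others did not have their lowest mean in B14 at every stage.

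**Figure D3:**
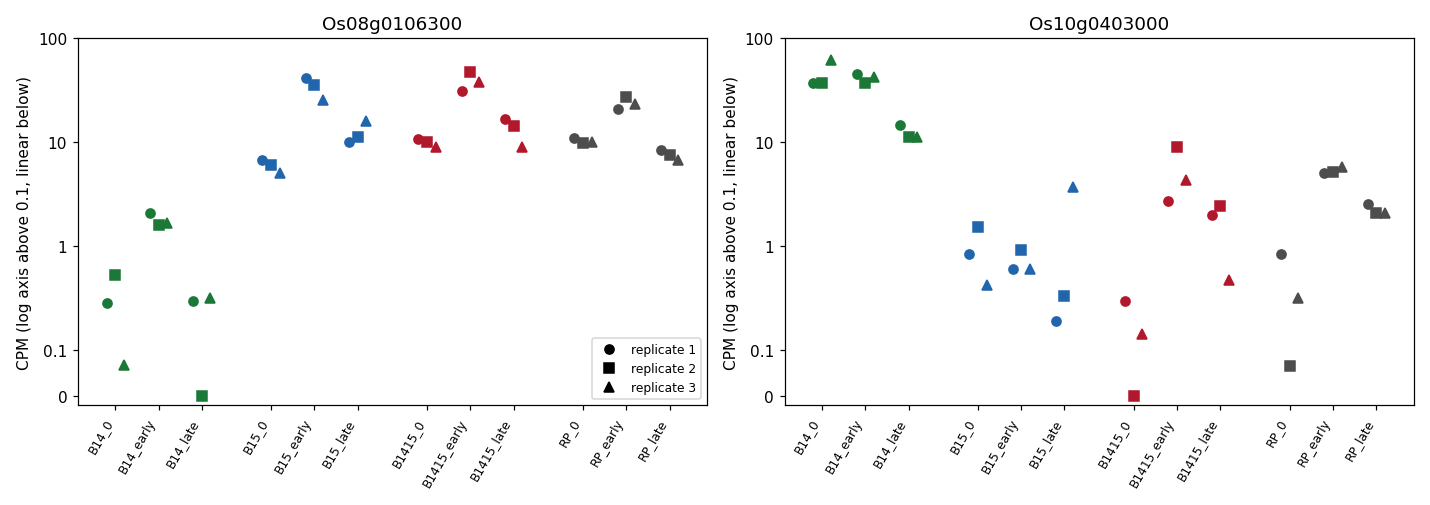
CPM of Os08g0106300 (left) and Os10g0403000 (right) in each library, by line and stage, with the replicate number as the symbol; the axis is logarithmic above 0.1 and linear below. B14 lies below every other group for Os08g0106300 and above every other group for Os10g0403000, and the replicate 3 libraries of B15_late and B1415_late lie apart from the others of their groups for Os10g0403000.

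Os10g0403000 did not share a single course across the lines. In B14 it was high before feeding, with 36.8, 36.9 and 60.9 CPM, stayed at 45.4, 36.6 and 42.3 CPM at the early stage and was at 14.4, 11.1 and 11.2 CPM at the late stage. In B15 it was low throughout, with 0.842, 1.52 and 0.422 CPM in non-infested, 0.6, 0.92 and 0.598 CPM in early and 0.191, 0.331 and 3.67 CPM in late libraries. B1415 had 0.299, 0 and 0.143 CPM, then 2.71, 8.88 and 4.29 CPM, then 1.99, 2.4 and 0.476 CPM, and RP had 0.832, 0.0657 and 0.313, then 5.08, 5.18 and 5.68, then 2.53, 2.08 and 2.09 CPM. B1415 thus followed the course of RP, and the means of the 2 lines at the early stage were 5.29 and 5.31 CPM. The high value in B15_late and the low value in B1415_late belong to the libraries numbered 3, which resembled the late libraries of the other line across all genes.

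Of the differences in early change between NILs, only that of B1415 from B15 passed, while the early levels differed in all 3 comparisons. In B1415_early/B1415_0 Os10g0403000 was up-regulated by 5.0 ± 0.60 on the log2 scale (SE, adjusted p = 1.56e-05), while the change was -0.17 ± 0.28 in B14 (adjusted p = 0.855, 0.24 without B14_0-3) and -0.48 ± 0.45 in B15 (adjusted p = 0.473). The B1415_0 libraries held only 0 to 5 counts of this gene, so the size of its rise in B1415 is uncertain. The change was larger in B1415 than in B15 (difference 5.49 ± 0.88, adjusted p = 0.00769), a call that DESeq2 did not give. The difference between B1415 and B14, 5.12 ± 0.81, had an adjusted p of 0.204, and it passed with DESeq2 and without B14_0-3 (4.75). That between B15 and B14 was -0.33 ± 0.57 (adjusted p = 0.929). The early level was lower in B15_early/B14_early (-5.74 ± 0.17, adjusted p = 7.49e-10) and in B1415_early/B14_early (-3.02 ± 0.24, adjusted p = 4.61e-06), and higher in B1415_early/B15_early (2.70 ± 0.40, adjusted p = 1.64e-05). These 3 calls held under every alternative. In B14 the gene was down-regulated at the late stage, by -1.81 ± 0.14 against early (adjusted p = 5.04e-06) and -1.96 ± 0.32 against non-infested plants (adjusted p = 0.00295), or -1.61 without B14_0-3. The late/early change in B1415, -1.67 ± 0.52, had an adjusted p of 0.0876, and passed without the library labelled B1415_late-3 (-1.26). In B15_late/B15_0 the change was 0.41 ± 0.79, and -2.04 without the library labelled B15_late-3. The next gene in locus order, Os10g0403200, was also highest in B14, with means of 2.36, 2.66 and 1.22 CPM at the 3 stages, and at most 0.315 CPM in any group of another line.

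Os12g0150200 had its highest mean at the early stage in all lines. Its libraries in B1415 held 0.299, 0.289 and 0.571 CPM in non-infested, 3.4, 3.74 and 4.64 CPM in early and 1.86, 2.12 and 3.33 CPM in late plants. B15 had 1.23, 2.01 and 0.141, then 5.55, 3.62 and 3.76, then 3, 2.24 and 1.07 CPM, and B14 had 1.26, 1.7 and 1.29, then 3.32, 3.98 and 4.85, then 2.2, 2.72 and 2.28 CPM. RP had 0.763, 1.64 and 1.13, then 4.45, 5.07 and 5.45, then 2.42, 2.64 and 1.72 CPM. The lines overlapped at the early stage and B1415 had the lowest mean before feeding. Early up-regulation was 3.30 ± 0.33 in B1415 (SE, adjusted p = 2.09e-06) and 1.80 ± 0.41 in B15 (adjusted p = 0.00491), the second not with DESeq2. In B14 the early change was 1.5 ± 0.28 (adjusted p = 0.0515), and it passed without B14_0-3. The difference of B1415 from B15, 1.51 ± 0.66, and from B14, 1.77 ± 0.42, did not pass (adjusted p = 0.359 and 0.694). In B1415 the late level was above the non-infested level (2.67 ± 0.42, adjusted p = 0.00108), and the late libraries also lay above all non-infested ones in B14 (0.72 ± 0.26, adjusted p = 0.065) and RP. The late/early change was -0.62 ± 0.28 in B1415 (adjusted p = 0.195) and -0.81 ± 0.24 in B14, under the 2-fold limit (adjusted p = 0.0149). The gene was down-regulated from early to late in B15 (-1.14 ± 0.33, adjusted p = 0.0151), but not without the library labelled B15_late-3 (-0.78) or B15_early-1 (-0.97).

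Os05g0223300, OsGRP5, met the rule in no NIL. The non-infested libraries held 1.2, 0.914 and 1.76 CPM in B14, 2.76, 2.8 and 1.76 in B15 and 0.956, 1.37 and 1.14 in B1415, against 0.208, 0.46 and 0.188 CPM, or 3, 7 and 3 counts, in RP. The NIL means were 4.53 (B14), 8.55 (B15) and 4.05 (B1415) times the RP mean, whose low value was among those that chose the gene. Early libraries held 2.88, 3.22 and 2.45 CPM in B14, 4.8, 5.35 and 5.86 in B15, 3.34, 2.46 and 2.88 in B1415 and 3.51, 4.11 and 3.48 in RP. The ratio of the early to the non-infested mean was 2.21 in B14, 2.19 in B15 and 2.50 in B1415, against 13 in RP, where it chose the gene. It was up-regulated in B15_early/B15_0 (1.04 ± 0.22, adjusted p = 0.00285, not without B15_early-3 or B15_0-3, at 0.95 and 0.88) and in B1415_early/B1415_0 (1.30 ± 0.27, adjusted p = 0.00226), and in B14 the change was 1.10 ± 0.36 (adjusted p = 0.233), which passed without B14_0-3 (1.49).

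No fall after the early stage passed the 2-fold limit for Os05g0223300 in a NIL. Late libraries held 2.28, 2.59 and 2.47 CPM in B14, 2.74, 3.48 and 3.2 in B15, 3.79, 4.68 and 2.5 in B1415 and 2.19, 0.943 and 1.27 in RP. In B1415 the late/early change was 0.39 ± 0.25 (adjusted p = 0.364) and the late level was above the non-infested one by 1.67 ± 0.30 (adjusted p = 0.0021). In B15 the late/early change was -0.88 ± 0.22 (adjusted p = 0.00575). At the early stage its level in B1415 was lower than in B15 (B1415_early/B15_early -1.07 ± 0.20, adjusted p = 0.000236), at -0.95 without B1415_early-2 and -0.98 without B15_early-3, under the 2-fold limit. It was higher in B15_early/B14_early (1.00 ± 0.21, adjusted p = 0.0161), a value at the 2-fold limit that was 0.997 with the replicate number as a block, where the replicates of this comparison were correlated by number, and 0.91 to 0.99 without B15_early-2, B15_early-3, B14_early-1 or B14_early-3.

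Os10g0205700, with the Ole e 1 domain, and Os10g0328600 met the rule in no NIL. Os10g0205700 had 0.416, 0.46 and 1 CPM in RP_0, 3.39, 1.58 and 1.74 in RP_early and 0.634, 0.377 and 1.05 in RP_late, and RP_early-1 held the highest of all values. In B14 it had 0.343, 0.522 and 0.679 CPM in non-infested, 0.924, 1.14 and 0.957 in early and 1.54, 1.73 and 2.09 in late libraries, without overlap between the stages, and it was up-regulated in B14_late/B14_0 (1.74 ± 0.38, SE, adjusted p = 0.0102), not without B14_late-3 (1.62). In B15 the early libraries (0.6, 0.23 and 0.359 CPM) lay below the non-infested ones (0.689, 0.974 and 0.774 CPM), with a change of -1.17 ± 0.46 and an adjusted p of 0.0772. In B1415 it was up-regulated with early feeding (1.1, 0.963 and 1.12 CPM in B1415_early and 0.418, 0.433 and 0.214 CPM in B1415_0, 1.51 ± 0.43, adjusted p = 0.0148), not without B1415_0-3 (1.26). The early mean was thus below the non-infested mean in B15 and above it in B14 and B1415. The decrease in B15 did not pass and rested on 4 to 8 counts per early library. No difference of these changes between lines passed. That between B1415 and B15, 2.69 ± 0.60, had an adjusted p of 0.0751 and that between B15 and B14, -2.11 ± 0.59, an adjusted p of 0.81. Over all 36 libraries this gene had 3 to 54 counts per library. At the early stage its level was higher in B1415_early/B15_early (1.27 ± 0.45, adjusted p = 0.0244), but not with DESeq2 or without B1415_early-1, B1415_early-3, B15_early-2 or B15_early-3 (0.99 to 1.24).

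Os10g0328600 passed in 1 comparison of the NILs. It ranged from 0.735 to 2.99 CPM over the 27 NIL libraries and from 0.751 to 2.89 CPM over the 9 RP libraries. Its early change was 0.77 ± 0.35 in B14, 0.38 ± 0.36 in B15 and 0.30 ± 0.31 in B1415, with adjusted p values of 0.397, 0.478 and 0.518. It was down-regulated in B14_late/B14_early (-1.32 ± 0.31, adjusted p = 0.00504), where its late libraries held 0.735, 0.988 and 1.33 CPM and its early libraries 2.45, 1.96 and 2.99 CPM.

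**Figure D4:**
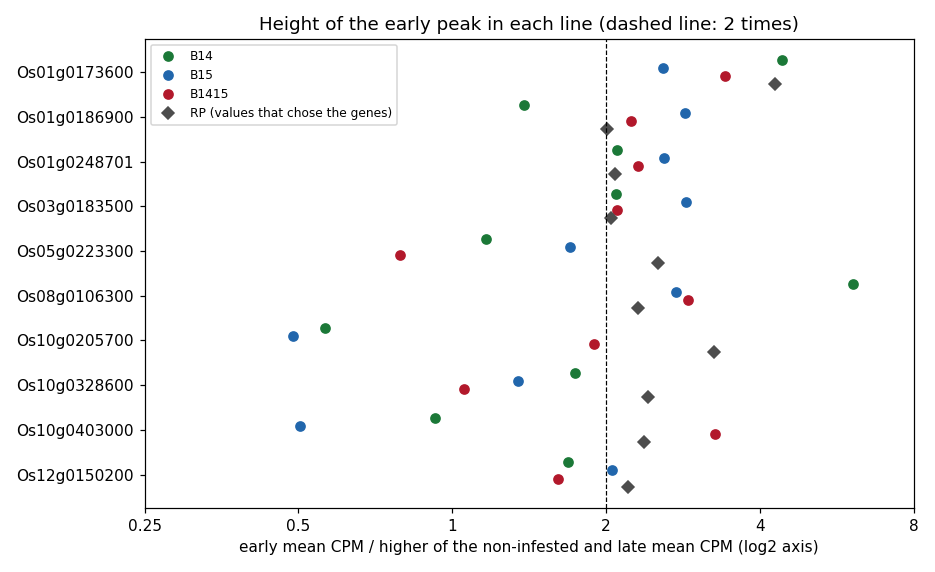
Early mean CPM divided by the higher of the non-infested and late mean CPM, per gene, for B14, B15 and B1415 (circles) and for RP (diamonds, the values that chose the genes), on a log2 axis; the dashed line marks the ratio of 2 used by the rule. Circles at or right of the line number 3 in B14, 6 in B15 and 6 in B1415 with an early mean of 2 CPM or more; Os08g0106300 in B14 lies right of the line but its early mean was 1.77 CPM.

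Between the NILs at the early stage, 2 or 3 of the 10 genes passed both the adjusted p and the 2-fold limit in each comparison. In B15_early/B14_early, 2 of 10 were higher (1% of all genes) and 1 was lower (0.23%). The numbers were 1 higher (2.32%) and 1 lower (0.472%) in B1415_early/B14_early, and 2 higher (2.11%) and 1 lower (3.28%) in B1415_early/B15_early, the last 3 falling to 1 without B15_early-3 (4.21% of all genes in either direction). With the replicate block, 2 genes in place of 3 passed in B15_early/B14_early. All of these were Os05g0223300, Os08g0106300, Os10g0205700 and Os10g0403000. For the other 6 genes the log2 difference between any 2 NILs lay between -0.78 (Os01g0173600, B1415_early/B14_early) and 0.55 (Os03g0183500, B15_early/B14_early). These 2 differences were under the 2-fold limit but had an adjusted p of 0.0158 and 0.0134. The same held in B1415_early/B15_early for Os03g0183500 (-0.64, adjusted p = 6.98e-05) and Os01g0186900 (-0.59, adjusted p = 0.00446).

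The early change itself was compared between NILs through the line by stage interaction at an adjusted p below 0.05. For B15 minus B14, 0 of 10 genes passed, against 0.02% of all genes with a larger and 0.00799% with a smaller change, and 1 of 10, Os10g0205700, had an unadjusted p under 0.05. DESeq2 also gave 0. Without B14_0-3 the count was 2 (Os01g0248701 and Os10g0205700), when 17.5% of all genes passed in either direction. For B1415 minus B14, 0 of 10 passed, against 0.00796% with a larger and 0% with a smaller change, 3 had an unadjusted p under 0.05, DESeq2 gave 1, and the count was 1 without B14_0-3, when 2.34% of all genes passed. For B1415 minus B15, 2 of 10 had a larger change, Os01g0248701 and Os10g0403000, against 0.179% of all genes, and 0 a smaller change, against 0.0478%. That count was 1 without B1415_0-1, B1415_0-3 or B15_0-3 (0.103% to 0.128% of all genes), 3 without B1415_0-2 (2.87%) and 1 with DESeq2.

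Families often named in fast responses to wounding and touch were counted among the 1582 genes whose annotation was read here. These came from the study's lists of genes changed in these same samples and are thus not independent. The study reported many more changed genes, so a gene without an annotation here may have one there. None of the 5 annotated members belonged to these families, and the other 5 members could not be assigned. Of 4 annotated AP2/ERF genes, 0 were up-regulated in B14_early/B14_0, 1 in B15_early/B15_0 and 1 in B1415_early/B1415_0, and 1 was down-regulated in each. Of 5 WRKY genes and 2 C2H2 zinc finger genes none passed in these comparisons, and of 11 calcium signalling genes 1 was down-regulated, in B1415_early/B1415_0. No annotated TIFY gene was found. The annotation covered only 1582 of the 38978 genes in the table, and by their identifiers all 5 WRKY genes lie on chromosome 1. Genes of these families without an annotation here were not counted, so the counts do not describe the families as a whole.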

How the data were processed

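The authors deposited whole-number counts per gene for 36 libraries, without normalization. According to the methods and the submitters' notes, reads were aligned with HISAT2 2.0.4 to IRGSP-1.0 and counted with HTseq; the HTseq version, annotation release and strand setting are not given in the sources used here, so overlapping and antisense genes may share reads. The methods and the sample labels differ in the library kit, the sequencer and 1 infestation time; the times given here are those of the methods. All 36 columns were used (10601967 to 18692187 counts per library).

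CPM was the count over the column total. Tests used edgeR 4.0.16 in R 4.3.3 (quasi-likelihood, TMM, filterByExpr with a minimum count of 10, Benjamini-Hochberg adjustment over all genes tested, threshold 0.05 and an absolute log2 fold change above 1), on the 6 libraries compared, or on 12 libraries for an interaction of line and stage, at the adjusted p alone. The methods list a p, an FDR and a 2-fold limit, and then define changed genes by the p below 0.05 with the 2-fold limit. The adjusted p used here is stricter than that definition, and the unadjusted p was an alternative. The SE is the log2 fold change over the root of the F statistic. Comparisons with RP libraries, which chose the genes, were not tested. The members, gene lists and tests were chosen with earlier results of these data known. All 10 members are named, so the rule for named genes left none out.

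Alternatives were DESeq2's size factors, no filter, the replicate block, DESeq2 1.42.0, the unadjusted p, a single fit of 36 libraries (limma 3.58.1 is loaded by edgeR), each library left out in turn, and both late libraries numbered 3 of B15 and B1415 left out. Replicate numbers paired the samples in 1 of 12 comparisons, B15_early/B14_early (correlations of 0.396, 0.131 and 0.233 between same-numbered libraries), by the data and not by the labels. Replicate pairs differed beyond sampling noise (median chi-square 0.910 to 20.3, against 0.455). On simulated data, 200 genes with a mean of 2 CPM or more were changed by a log2 fold change of 2. The 15 tests recovered 85.5% to 100% of them, with 0 to 14 false calls. The simulation held no library that stood apart, such as B14_0-3, and does not cover members below 2 CPM. No genome sequence or RAP annotation was used here, 0 of 10 members matched the reference gene table, and promoter motifs were not searched.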

Additional observations from a re-analysis of the deposited data

Results flagged for a closer look

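Of the 10 genes, 2 had an early/0 change that differed between 2 NILs by the test of the difference itself (edgeR's interaction of line and stage, Benjamini-Hochberg adjusted). Os10g0403000 changed more in B1415 than in B15 by 5.49 on the log2 scale (adjusted p = 0.00769), with all 3 B1415_early libraries above all 3 B1415_0 libraries, and all B15 libraries of both stages at or under 1.52 CPM. Its counts were low, with 0 to 5 in B1415_0, 6 to 25 in B15_0 and 8 to 16 in B15_early, so the size of this difference is uncertain. Os01g0248701 changed more in B1415 than in B15 by 1.26 (adjusted p = 0.0133). Its non-infested means were 2.24 CPM in B1415 and 5.21 CPM in B15, and its early means were 21.8 CPM in B1415 and 22.1 CPM in B15, so the means differed before feeding more than after it.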

How the results depend on the processing

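Of 52 called changes of single genes, 33 were kept under every alternative and 0 changed sign, and 62 of 647 pairs of a called change and an alternative fell short of the threshold. The 10 members became 8 with TMM-scaled CPM, where the numbers meeting the rule in the NILs did not move, 2 with a 3-fold rule, 5 with a minimum early mean of 5 CPM and 4 with 10 CPM, and ranged from 9 to 14 with 1 library left out. The number meeting the rule ranged from 1 to 3 in B14, 4 to 6 in B15 and 5 to 6 in B1415. In B14_early/B14_0 the 2 calls became 7 at the unadjusted p, 6 with DESeq2 and 7 in the single fit of 36 libraries. The share of all genes that passed was also higher in each of these settings. With the replicate block the 2 calls became 1, and the share of all genes was lower. With a library left out, the calls ranged from 0 to 7. The 3 calls of B14_late/B14_0 became 5 in the single fit and ranged from 2 to 7. The 0 of B15_late/B15_0 became 1 without both late libraries numbered 3 (range 0 to 1). With 1 library left out, the calls ranged from 0 to 5 in B1415_late/B1415_early and from 1 to 3 in B1415_early/B15_early. For the change that differed between lines, the range was 0 to 2 for B15 minus B14, 0 to 1 for B1415 minus B14 (1 with DESeq2) and 1 to 3 for B1415 minus B15 (1 with DESeq2). Why these counts moved was not tested.

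The sign turned for log2 fold changes that had not passed. Os10g0403000 was 0.41 in B15_late/B15_0, -0.12 with the replicate block and -2.04 without the late libraries numbered 3 (range without 1 library -2.04 to 0.94). Os10g0328600 was -0.0048 in B1415_late/B1415_early, 0.019 with the replicate block, and between -0.22 and 0.23 without 1 library. Without 1 library, Os10g0403000 ranged from -0.34 to 0.24 in B14_early/B14_0 and from -0.81 to 0.067 in B15_early/B15_0, and in B15_late/B15_0 Os01g0173600 ranged from -0.22 to 0.65 and Os05g0223300 from -0.034 to 0.25. The replicate block changed, beside B14_early/B14_0, the call of Os05g0223300 in B15_early/B14_early. Genes at a few counts per library, such as Os10g0205700 and Os08g0106300 in B14, are limited by this depth.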
